A study of Mus musculus with 4 samples.

Results

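The genes described here are 10 adhesion genes and regulators of the epithelial-mesenchymal transition (EMT) at the primitive streak, namely *Cdh1*, *Epcam*, *Esrp1*, *Cdh2*, *Cdh11*, *Vim*, *Twist1*, *Zeb2*, *Zeb1* and *Snai2*. They were chosen by gene symbol, and all 10 were found among the 24347 gene rows of the expression tables. Transcriptomes were measured by RNA-seq in EBs (embryoid bodies), suspended clusters of mouse embryonic stem cells (mESCs) that differentiate once LIF is withdrawn. EBs from WT mESCs were compared at day 3 with EBs from mESCs that lack the promoter of *Gm11549*, the gene that encodes the micropeptide NEMEP (promoter KO). There were 2 samples of each genotype, called WT 1 and WT 2 or promoter KO 1 and promoter KO 2. The comparison asks whether adhesion and transition genes differ between the genotypes when mesendoderm forms.

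Both genotypes were of the 129/Ola strain, were grown in serum medium on gelatin before EB formation, and received no other treatment. The promoter was deleted with CRISPR/Cas9 and a pair of sgRNAs, and clones were grown from single sorted cells. The sources used here do not say which clone each promoter KO sample came from, so a difference between the genotypes cannot be told apart from a difference between clones. The study counts the 2 samples of a genotype as biologically independent, but the sources do not say that they came from separate cultures. If they did not, the p-values measure only the spread between these samples, which may be technical.

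At the primitive streak, epithelial cells of the epiblast lose their E-cadherin junctions and leave the layer as mesenchyme, which carries other cadherins such as N-cadherin. This exchange is known as the cadherin switch. Transcription factors of the Snail, Zeb and Twist families repress epithelial genes during the transition, and epithelial splicing regulators such as ESRP1 hold the epithelial isoforms of many transcripts.

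Expression was given as FPKM, which divides fragments by transcript length and by the number of mapped fragments, so that levels of different genes can be compared per length. From the lowest values the depth was estimated at about 24900000 and 22100000 fragments for WT EBs, compared with 21700000 and 20000000 for promoter KO EBs. Where a pair of values is given for a genotype, sample 1 comes first. The targeted gene *Gm11549* stood at 0.750 FPKM in WT 1 and 0.522 FPKM in WT 2. It was listed at 0 in promoter KO 1 and stood at 0.0659 FPKM in promoter KO 2, so the targeted gene was lowest in the samples labelled promoter KO. About 49.2 and 30.4 fragments lay behind the WT values and 3.46 behind that of promoter KO 2, and the gene was below the filter for testing.

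The genotypes were compared with limma on log2(FPKM + 1) in 11941 genes, those at 1 FPKM or more in 2 or more of the 4 samples, and a gene was called at a Benjamini-Hochberg adjusted p under 0.05. Of the 10 genes, 8 were tested and 2, *Zeb1* and *Snai2*, were below the filter. The mesenchymal cadherins *Cdh2* and *Cdh11* were called lower in promoter KO, which is 2 of 8 tested, while 1.89% of all tested genes were called lower. No gene of the 10 was called higher by limma (0 of 8), where 1.68% of all tested genes were, and at an unadjusted p under 0.05 there were 3 of 8 lower and 0 higher, where 15.6% of all tested genes were lower and 15.0% higher. In 4 of the 8, both promoter KO samples were lower than both WT samples (*Cdh2*, *Cdh11*, *Zeb2* and *Twist1*) and in 2 they were higher (*Cdh1* and *Epcam*). Over all tested genes these shares were 32.4% and 32.9%, so that such a separation on its own was common in these data. *Zeb2*, which is in the 3 and in the 4, passed the filter through the WT samples alone and could count only as lower in promoter KO. It was 1 of 8 in this respect, where 1.38% of all tested genes passed through WT alone and 1.39% through promoter KO alone.

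**Figure D1:**
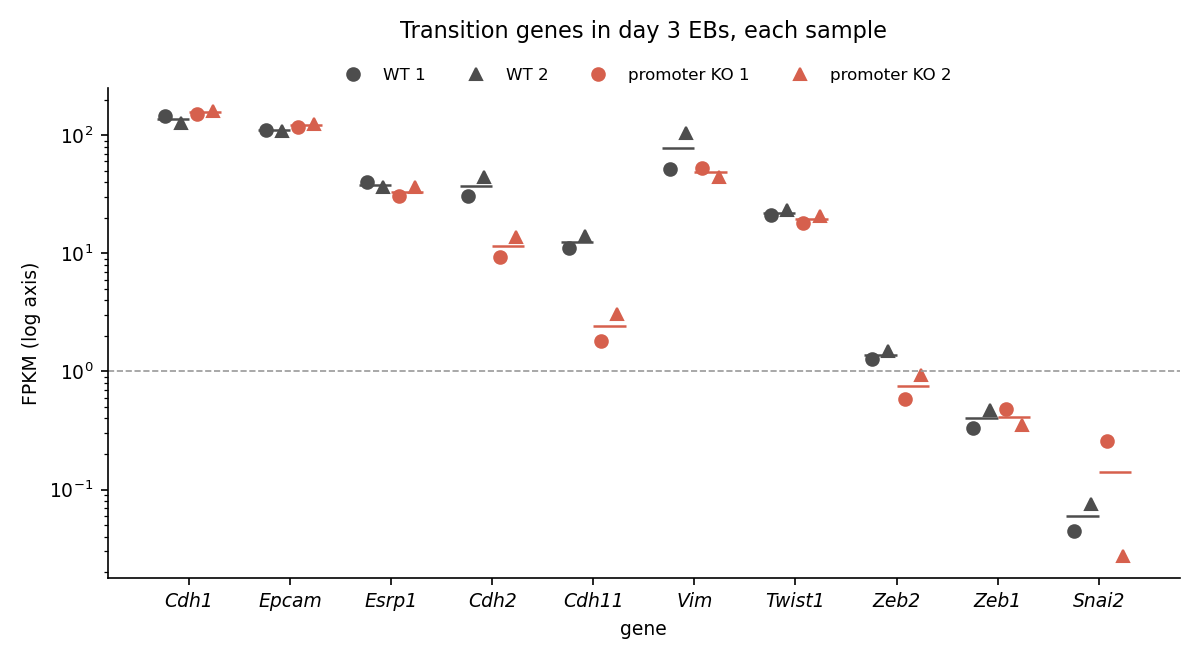
FPKM of the 10 genes (log axis) in each of the 4 samples, with WT in grey, promoter KO in red, circles for sample 1, triangles for sample 2, a bar at each genotype's mean (n = 2) and a dashed line at the filter of 1 FPKM. The promoter KO points of *Cdh2* and *Cdh11* sit well below the WT points, whereas the points of *Cdh1*, *Epcam*, *Esrp1* and *Twist1* lie close together.

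*Cdh1* and *Epcam* were the most abundant of the 10. *Cdh1*, which encodes E-cadherin, lies on the plus strand of chromosome 8 (chr8:106603351-106670246, GRCm38). Its level was 145 and 128 FPKM in WT EBs, compared with 152 and 162 FPKM in promoter KO EBs. Both promoter KO samples were the higher ones, but the gap between promoter KO 1 and WT 1 was smaller than the gap between the WT samples. The mean was 136 ± 11.8 FPKM for WT, compared with 157 ± 7.48 FPKM for promoter KO EBs (SD, n = 2). The log2 difference was 0.20 (95% confidence interval -0.02 to 0.43), and it did not pass the test (limma, adjusted p = 0.194).

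*Epcam*, which encodes an adhesion protein of epithelia and of undifferentiated mESCs, is on the plus strand of chromosome 17 (chr17:87635979-87651129). It stood at 111 and 109.6 FPKM in WT EBs, compared with 117 and 125 FPKM in promoter KO EBs. The promoter KO samples were again slightly above the WT samples, by 0.13 on the log2 scale (limma, adjusted p = 0.287), which did not pass the test. Promoter sequences from RefSeq (GRCm38.p6) were at hand for 4 of the 10 genes, in 7 windows of 250 bases before a start site. They were searched for CAGGTG and for CACCTG, the same letters on the other strand, because Snail and Zeb proteins are known to bind these letters. Only the *Epcam* window held a match, while the windows of *Twist1*, *Vim* and *Zeb2* held none, and 17.2% of the 32851 promoter windows of this length held at least 1. The *Vim* window and most *Zeb2* windows overlapped an annotated exon, whereas those of *Epcam* and *Twist1* did not. *Cdh1*, *Esrp1*, *Cdh2*, *Cdh11*, *Zeb1* and *Snai2* had no window and were not searched. The *Epcam* window (chr17:87635729-87635978, plus strand) is shown 5′ to 3′ because it is the only searched window with a match. Its 2 matches are in capitals and begin at positions -187 and -19 from the start site.
Epcam: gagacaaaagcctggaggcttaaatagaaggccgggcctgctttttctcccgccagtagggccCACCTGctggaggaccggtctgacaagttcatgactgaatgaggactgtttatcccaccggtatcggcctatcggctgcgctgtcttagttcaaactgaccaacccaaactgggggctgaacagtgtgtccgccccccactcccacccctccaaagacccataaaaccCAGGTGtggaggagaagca

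*Esrp1*, the epithelial splicing regulator on the minus strand of chromosome 4 (chr4:11331933-11386783), stood at 40.1 and 36.2 FPKM in WT EBs, compared with 30.4 and 36.3 FPKM in promoter KO EBs. The genotypes overlapped, since promoter KO 2 lay between the WT samples. The log2 difference of -0.19 (interval -0.48 to 0.10) did not pass the test (limma, adjusted p = 0.308). None of the 3 epithelial genes passed the test, and none of their intervals reached a fall of the size measured for the mesenchymal cadherins.

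*Cdh2* encodes N-cadherin, the cadherin of the mesoderm that leaves the streak and later of neural tissue, and lies on the minus strand of chromosome 18. Its level was 30.4 and 44.4 FPKM in WT EBs, compared with 9.41 and 13.8 FPKM in promoter KO EBs. The genotypes did not overlap, and the lower WT sample was far above the higher promoter KO sample. The mean was 37.4 ± 9.88 FPKM for WT, compared with 11.6 ± 3.09 FPKM for promoter KO EBs (SD, n = 2), so that WT was 3.23-fold higher. On the log2 scale *Cdh2* fell by 1.61 (SE 0.23, interval -2.18 to -1.04), with an adjusted p of 0.0384 by limma. In bulk EBs, fewer cells that express a gene and less of its RNA in each cell cannot be told apart.

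*Cdh11*, which encodes cadherin-11 (OB-cadherin) of mesenchymal cells, is on the minus strand of chromosome 8 (chr8:102632095-102785642). It stood at 11.1 and 14.1 FPKM in WT EBs, compared with 1.82 and 3.07 FPKM in promoter KO EBs. Both promoter KO samples were far below both WT samples, and promoter KO 1 was the lowest, as it was for *Cdh2*. The WT mean was 12.6 ± 2.08 FPKM and the promoter KO mean 2.45 ± 0.885 FPKM (SD, n = 2), a 5.15-fold higher level in WT. The log2 difference was -1.997 (SE 0.22, interval -2.53 to -1.47), the largest in size of the 8 tested genes, with an adjusted p of 0.0269 by limma. About 215 and 334 fragments lay behind the promoter KO values and about 1511 and 1694 behind the WT values.

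Part of the *Cdh11* transcript is shared with 7 other annotated genes, which have a stretch of at least 200 bases at 95% identity or more with it, the longest of 990 bases. How fragments of such a stretch were divided is not given in the sources used here, so the level of *Cdh11* is uncertain to that degree. Of the 7 genes, 2 had a row. *2610005L07Rik* stood at 5.21 and 4.48 FPKM in WT EBs, compared with 6.85 and 6.26 FPKM in promoter KO EBs, and *6820431F20Rik* at 1.89, 2.37, 2.74 and 2.30 FPKM in the same order of samples. *2610005L07Rik* was higher in both promoter KO samples, whereas the genotypes of *6820431F20Rik* overlapped. Whether fragments of *Cdh11* were assigned to these genes was not tested. *Cdh2* and the other members had no such copy. The median log2 difference of all tested genes was -0.01 both on chromosome 8 (631 genes), which carries *Cdh11* and *Cdh1*, and on chromosome 18 (281 genes), which carries *Cdh2*.

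The calls of *Cdh2* and *Cdh11* needed both WT 2 and promoter KO 1. Without WT 2 the adjusted p by limma was 0.186 for *Cdh2* and 0.141 for *Cdh11*, and without promoter KO 1 it was 0.144 and 0.103, and in both cases 0 genes of the whole table were called (1875 and 2009 had an unadjusted p under 0.05). Without WT 1 or promoter KO 2 both genes remained called, and both remained lower in every one of these fits. With no filter on low values neither was called (adjusted p = 0.1435 for *Cdh2* and 0.140 for *Cdh11* by limma), and without the trend *Cdh2* missed the threshold (0.0629). Over all alternatives the adjusted p ran from 0.00675 to 0.186 for *Cdh2* and from 0.00750 to 0.141 for *Cdh11*.

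The balance of the cadherins differed between the genotypes. Per FPKM, the *Cdh2* to *Cdh1* ratio was 0.210 and 0.347 in WT EBs, compared with 0.0621 and 0.0849 in promoter KO EBs. In other words, the *Cdh1* level was 4.75 and 2.88 times the *Cdh2* level in the WT samples, and 16.1 and 11.8 times in the promoter KO samples. The genotypes did not overlap, and the mean log2 ratio was -1.89 ± 0.51 in WT and -3.78 ± 0.32 in promoter KO (SD, n = 2), a difference of -1.90. For *Cdh11* to *Cdh1* the ratios were 0.0769 and 0.110 in WT and 0.0120 and 0.0189 in promoter KO.

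The sum of the 3 cadherins changed little beside this. It was 186 FPKM in both WT samples, and in the promoter KO samples it was 163 and 179 FPKM. *Cdh2* and *Cdh11* together made up 22.3% of it in WT 1 and 31.4% in WT 2, but 6.89% in promoter KO 1 and 9.41% in promoter KO 2. No test was run on these ratios and shares.

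**Figure D2:**
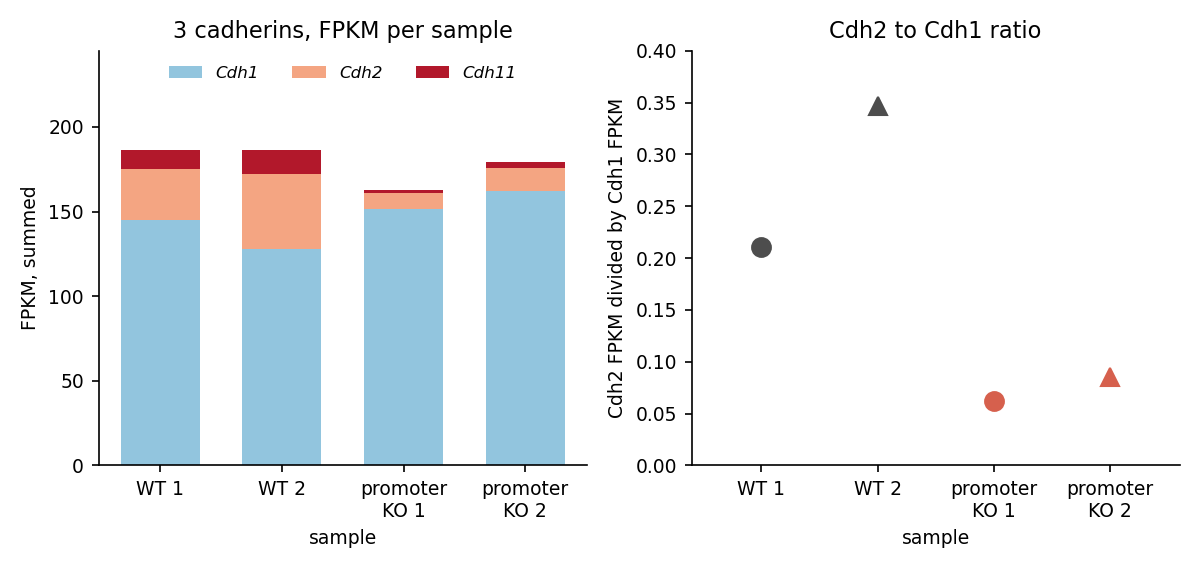
Left, FPKM of *Cdh1*, *Cdh2* and *Cdh11* stacked for each sample, and right, the *Cdh2* FPKM divided by the *Cdh1* FPKM in each sample, with WT in grey and promoter KO in red. *Cdh1* fills most of every bar, and the ratio is 0.210 and 0.347 in the WT samples against 0.0621 and 0.0849 in the promoter KO samples.

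Among all tested genes, those nearest to *Cdh2* in their course over the 4 samples were *Adssl1*, *Dgkk*, *Gata6*, *Smad6* and *Pgm2*, at a root mean square distance of 0.0649 to 0.117 in log2(FPKM + 1) centred on each gene's mean. *Gata6*, for example, stood at 12.8 and 21.7 FPKM in WT EBs, compared with 4.13 and 5.18 FPKM in promoter KO EBs. The genes nearest to *Cdh11* were *1700003F12Rik*, *Gas1*, *Grrp1*, *Ndrg1* and *Vax1*, at 0.110 to 0.159. *Cdh2* and *Cdh11* were 0.2095 apart, and among the 8 tested members the nearest pair was *Cdh1* and *Epcam* at 0.0659.

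*Vim*, which encodes the intermediate filament protein of mesenchymal cells (chr2:13573927-13582826, plus strand), did not follow the mesenchymal cadherins in every sample. It stood at 51.8 and 105 FPKM in WT EBs, compared with 52.8 and 44.4 FPKM in promoter KO EBs. WT 2 alone was high, and WT 1 lay between the promoter KO samples, so the genotypes overlapped. The mean was 78.3 ± 37.6 FPKM for WT, compared with 48.6 ± 5.98 FPKM for promoter KO EBs (SD, n = 2). The log2 difference of -0.60 (interval -1.35 to 0.16) did not pass the test (limma, adjusted p = 0.242), and it was -0.095 without WT 2 (adjusted p = 0.778) and -1.10 without WT 1 (adjusted p = 0.0496), which are the ends of its range over the alternatives.

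The transcription factors of the 10 genes were spread over a wide range of levels. *Twist1*, a basic helix-loop-helix factor (chr12:33957671-33959829, plus strand), was expressed at 21.1 and 23.2 FPKM in WT EBs, compared with 18.1 and 20.6 FPKM in promoter KO EBs. Promoter KO 2 was only just below WT 1. The log2 difference was -0.19 (interval -0.46 to 0.09), and it did not pass the test (limma, adjusted p = 0.305).

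*Zeb2*, a zinc finger repressor of *Cdh1* (chr2:44983632-45117395, minus strand), stood near the detection filter at 1.28 and 1.49 FPKM in WT EBs, compared with 0.579 and 0.925 FPKM in promoter KO EBs. Both promoter KO samples were below the filter of 1 FPKM. The log2 difference was -0.45 (interval -0.88 to -0.02) with an unadjusted p of 0.0414 and an adjusted p of 0.1497 by limma, which did not pass. The ratio of the mean FPKM, without the pseudocount of 1, gave -0.88. *Zeb2os*, which overlaps *Zeb2* exons on the opposite strand, stood at 0.935 and 0.879 FPKM in WT EBs, compared with 0.0854 and 0.324 FPKM in promoter KO EBs. The sources used here do not give the strand setting, so fragments of *Zeb2* and *Zeb2os* may not have been kept apart.

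*Zeb1* and *Snai2*, further repressors of this kind, were barely expressed at day 3. *Zeb1* stood at 0.335 and 0.474 FPKM in WT EBs, compared with 0.479 and 0.349 FPKM in promoter KO EBs, with overlapping genotypes. *Snai2* (chr16:14705852-14709385, plus strand) stood at 0.0448, 0.0755, 0.256 and 0.0276 FPKM in the same order, which corresponds to about 2.03, 3.04, 10.1 and 1.00 fragments. The genotypes overlapped at these few fragments, with promoter KO 1 the highest sample. *Snai2* was below the filter, so no difference in it was tested.

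In WT EBs the order of the mean levels was *Cdh1*, *Epcam*, *Vim*, *Esrp1*, *Cdh2*, *Twist1*, *Cdh11*, *Zeb2*, *Zeb1* and *Snai2*, and of the neighbours in this order only *Esrp1* and *Cdh2* overlapped in their samples. In promoter KO EBs *Twist1* stood above *Cdh2*, the order was otherwise the same, and no neighbours overlapped. Among the 11941 tested genes, the mean level over the 4 samples put *Cdh1* at percentile 94.7, *Epcam* at 93.1 and *Vim* at 86.9, *Cdh2* at 68.6 and *Cdh11* at 37.8, and *Zeb2* at 2.3.

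**Figure D3:**
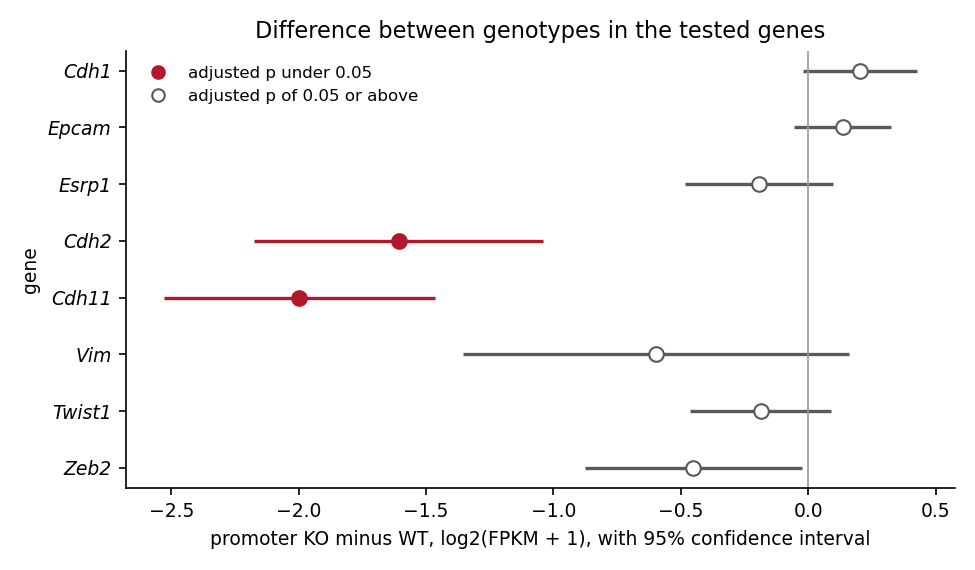
Difference between promoter KO and WT in log2(FPKM + 1) for the 8 tested genes, with 95% confidence intervals from limma, where filled red points have an adjusted p under 0.05. *Cdh2* at -1.61 and *Cdh11* at -1.997 lie apart from the other 6 genes, whose differences run from -0.60 to 0.20.

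Other genes of the transition were described by lists, by the number that passed the same test and by the median log2 difference, which was 0.00 over all tested genes. Among other epithelial genes, 37 of 38 were tested and 0 were called by limma in either direction, with 5 lower and 3 higher at an unadjusted p under 0.05 and a list median of -0.06. Of all tested genes, 30.6% had such a p, 15.6% lower and 15.0% higher, while 1.89% were called lower and 1.68% higher. These shares apply beside the lists below as well. The largest differences in this list were those of *Dsp*, a desmosome protein, *Rab25*, a GTPase of epithelial vesicle transport, and *Cldn3*, a tight junction claudin. *Rab25* stood at 23.6 and 18.3 FPKM in WT EBs, compared with 8.52 and 12.0 FPKM in promoter KO EBs (limma, adjusted p = 0.0538). *Dsp* stood at 6.89 and 14.5 FPKM in WT EBs, compared with 3.92 and 5.23 FPKM in promoter KO EBs, and *Cldn3* at 24.96 and 45.2 FPKM against 16.1 and 20.8 FPKM. All 3 were lower in both promoter KO samples, and none passed the test. The list went both ways, since 9 genes had both promoter KO samples below both WT samples and 10 had them above. Higher at an unadjusted p under 0.05 were *Esrp2*, *Ocln* and *Grhl2*. *Grhl2* stood at 9.49 and 6.82 FPKM in WT EBs, compared with 16.5 and 12.5 FPKM in promoter KO EBs (limma, adjusted p = 0.0746). *Ocln* and *Grhl2* were named after their values were seen.

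Of 31 other mesenchymal genes 20 were tested. In 12 of them both promoter KO samples were below both WT samples and in 4 above, where 32.4% and 32.9% of all tested genes were. The list median was -0.54, yet by limma 0 were called lower and 1 was called higher. At an unadjusted p under 0.05, 10 were lower and 2 higher, where 15.6% and 15.0% of all tested genes were. Of the 10, *Col1a1*, *Pdgfrb* and *Axl* passed the filter through WT alone, as *Zeb2* did, and are also among the 12, while *Fbn1*, among the 4, passed through promoter KO alone. The called gene was *Sparc*, a matrix glycoprotein made by mesenchyme and also by parietal endoderm, at 46.0 and 59.3 FPKM in WT EBs, compared with 111 and 134 FPKM in promoter KO EBs (log2 difference 1.21, adjusted p = 0.0318). The call of *Sparc* was lost without WT 1 (adjusted p = 0.0567), without WT 2 (0.105), without promoter KO 1 (0.127), with no filter (0.1425) and without the trend (0.0617), within a range of 0.00719 to 0.1425 over the alternatives. *Fn1*, which encodes fibronectin, stood at 64.6 and 221 FPKM in WT EBs, compared with 49.1 and 40.2 FPKM in promoter KO EBs, so that WT 2 stood apart as it did for *Vim*. *Tagln*, of the smooth muscle cytoskeleton, stood at 40.0, 73.5, 7.57 and 39.4 FPKM in this order, and *Loxl2*, a lysyl oxidase, at 8.53, 16.3, 3.85 and 6.40 FPKM. With adjusted p-values of 0.138, 0.189 and 0.0945 by limma, these 3 did not pass.

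Among other transcription regulators of the transition, 18 of 19 were tested, and limma called 2 lower and 0 higher, with 7 lower and 2 higher at an unadjusted p under 0.05. Of the 7, *Foxc1* passed the filter through WT alone and could count only as lower. *Gsc*, a homeobox gene of the anterior streak and one of the streak markers too, fell from 62.9 and 50.4 FPKM in WT to 6.99 and 15.3 FPKM in promoter KO (log2 difference -2.33, adjusted p = 0.0372). *Hmga2*, an architectural chromatin protein, fell from 24.7 and 44.2 FPKM to 9.85 and 10.4 FPKM (-1.62, adjusted p = 0.0418). Leaving out WT 2 or promoter KO 1 ended both calls, at 0.172 and 0.0763 for *Gsc* and at 0.113 and 0.179 for *Hmga2*, as did leaving out WT 1 for *Gsc* (0.0837) and promoter KO 2 for *Hmga2* (0.0672). Neither gene was called with no filter (0.1435 and 0.1456) or without the trend (0.0624 and 0.0642). The full range of adjusted p was 0.0139 to 0.172 for *Gsc* and 0.0143 to 0.179 for *Hmga2*.

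*Snai1*, the Snail factor that represses *Cdh1* at the streak, stood at 36.7 and 78.1 FPKM in WT EBs, compared with 13.0 and 18.5 FPKM in promoter KO EBs. Its genotypes did not overlap, although the WT samples were far apart. The log2 difference of -1.73 just missed the threshold in limma (adjusted p = 0.0546), and over the alternatives it ran from 0.00925 with the replicate number as a block to 0.239. *Snai1* was thus far more abundant per length than *Snai2* in every sample. *Foxc1*, a forkhead factor, stood at 1.01, 2.51, 0.193 and 0.363 FPKM and *Id1*, an inhibitor of helix-loop-helix factors, at 82.2, 146, 58.8 and 58.1 FPKM, in the order WT 1, WT 2, promoter KO 1 and promoter KO 2, and neither passed (adjusted p = 0.0782 and 0.0831 by limma).

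The catenins and junction partners, a list that also holds nectins, polarity genes and small GTPases, showed a median of -0.04 over 20 tested genes of 21. Limma called 0 lower and 1 higher, with 3 lower and 2 higher at an unadjusted p under 0.05. The called gene was *Plekha7*, an adherens junction protein that binds p120 catenin, at 15.1 and 13.5 FPKM in WT EBs, compared with 22.3 and 21.3 FPKM in promoter KO EBs (log2 difference 0.58, adjusted p = 0.0493), and this call was lost when any 1 sample was left out (adjusted p of 0.0733 to 0.245) and, among the other alternatives, kept only with the replicate block (0.03715). *Ctnna1*, alpha-catenin, stood at 141 and 143 FPKM in WT EBs, compared with 97.0 and 118 FPKM in promoter KO EBs (limma, adjusted p = 0.0772). *Ctnnb1*, beta-catenin, was the most abundant gene of this list. *Crb2* stood at 3.19 and 4.84 FPKM against 1.81 and 2.93 FPKM, and *Pard6a* at 10.3 and 9.32 FPKM against 7.07 and 5.91 FPKM, and neither of these polarity genes passed.

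Of 25 other cadherins and protocadherins, only 10 reached the filter. Limma called 1 lower and 0 higher, with 5 lower and 1 higher at an unadjusted p under 0.05, and the median was -0.29. *Cdh13*, 1 of the 5, passed the filter through WT alone and *Cdh6*, the 1 higher, through promoter KO alone, so the filter fixed their directions. The called gene was *Pcdh7*, a protocadherin, which stood at 8.55 and 14.7 FPKM in WT EBs, compared with 0.967 and 2.95 FPKM in promoter KO EBs (log2 difference -2.14, adjusted p = 0.0472). This call was lost without WT 1 (adjusted p = 0.0715), WT 2 (0.223) or promoter KO 1 (0.169). By adjusted p only the replicate block (0.00750) and the fit without promoter KO 2 (0.0404) kept it, and the study's thresholds on the unadjusted p kept it too. *Cdh13*, which encodes a cadherin without a cytoplasmic tail, stood at 1.24 and 1.78 FPKM in WT EBs, compared with 0.331 and 0.405 FPKM in promoter KO EBs (adjusted p = 0.0551 by limma). *Cdh4*, at 1.56 and 2.87 FPKM against 0.829 and 1.15 FPKM, and *Pcdh18*, at 2.04 and 2.28 FPKM against 0.990 and 1.44 FPKM, did not pass either.

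Splicing factors of epithelial and mesenchymal isoforms had a median of 0.14 over 13 tested genes of 16. Limma called 0 in either direction, with 1 lower and 5 higher at an unadjusted p under 0.05. Of the 5, *Mbnl1* passed the filter through promoter KO alone and could count only as higher. *Esrp2*, the paralog of *Esrp1*, stood at 4.05 and 3.36 FPKM in WT EBs, compared with 6.58 and 6.74 FPKM in promoter KO EBs (limma, adjusted p = 0.0541), in contrast to *Esrp1*, whose genotypes overlapped at a far higher level. *Mbnl1* stood at 0.650 and 0.543 FPKM in WT EBs, compared with 1.48 and 1.28 FPKM in promoter KO EBs, and *Mbnl2* at 3.93 and 3.33 FPKM against 5.34 and 5.73 FPKM, and neither muscleblind gene passed.

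**Figure D4:**
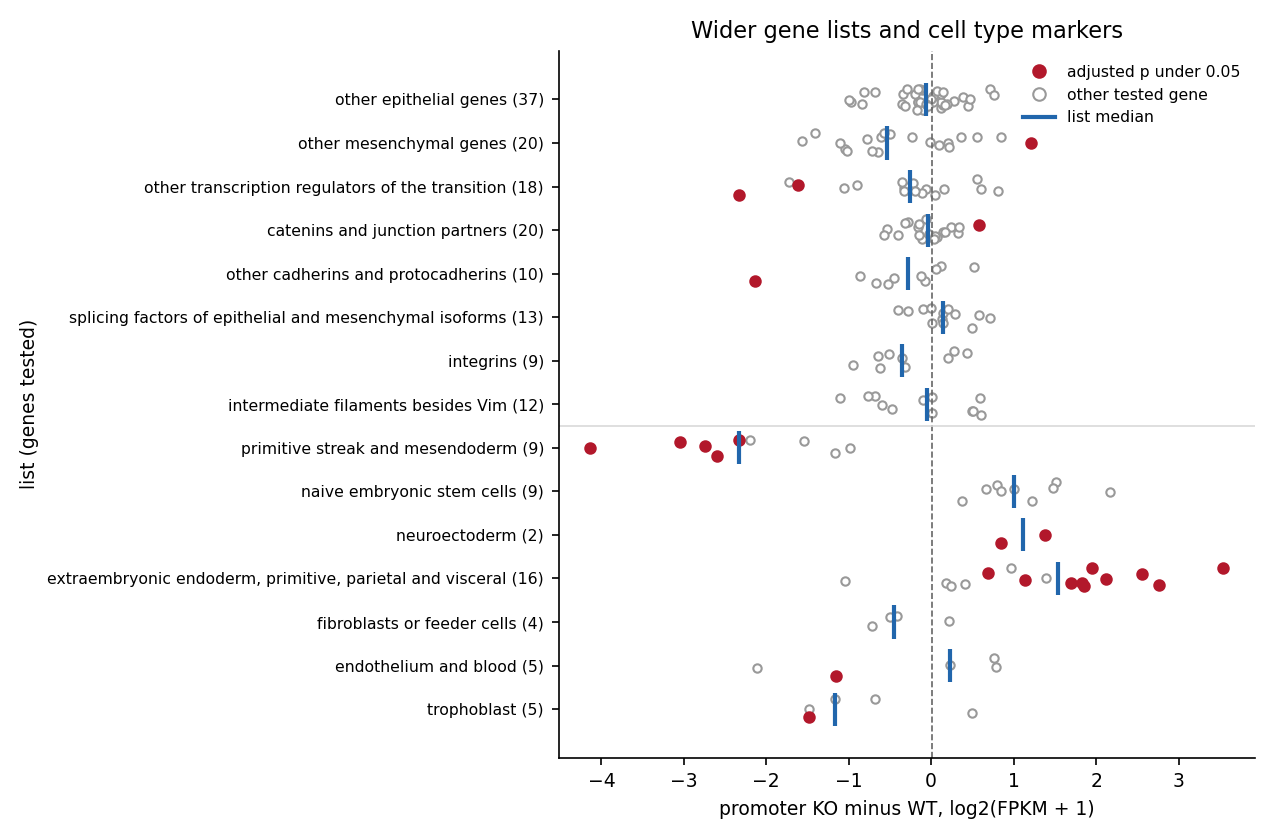
Difference between promoter KO and WT in log2(FPKM + 1) for each tested gene of the wider lists (above the grey line) and of the cell type marker lists (below it), with the number of tested genes in brackets, genes with an adjusted p under 0.05 in red, list medians as blue bars and the median of all tested genes as a dashed line. The primitive streak markers lie lowest, with a median of -2.33, and the extraembryonic endoderm markers highest, with a median of 1.54.

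Markers of cell types that day 3 EBs can hold were described in the same way. The labels call all samples mesendoderm cells, and the defining streak markers *T*, *Mixl1* and *Eomes* were found in all 4. Of 10 markers of the primitive streak and mesendoderm, 9 were tested. By limma 5 were called lower (*Mixl1*, *Gsc*, *Mesp1*, *Lhx1* and *Evx1*) and 0 higher, where 1.89% and 1.68% of all tested genes were. All 9 were lower at an unadjusted p under 0.05. Of these, *Tbx6* passed the filter through WT alone and could count only as lower. The summed level of the 10 markers was 779 and 1032 FPKM in WT EBs, compared with 148 and 315 FPKM in promoter KO EBs. The most abundant by the mean over all samples was *T* (Brachyury), at 306 and 448 FPKM in WT EBs, compared with 50.5 and 127 FPKM in promoter KO EBs, which itself just missed the threshold (adjusted p = 0.0509). In promoter KO 1 *Eomes* was above it. Of the other defining markers, *Mixl1* fell from 63.0 and 76.3 FPKM to 5.56 and 15.9 FPKM (adjusted p = 0.0389), and *Eomes* stood at 166 and 168 FPKM against 56.3 and 97.1 FPKM (adjusted p = 0.0547). As for *Cdh2* and *Cdh11*, promoter KO 1 was the lowest sample for each of these 3 genes. None of the defining markers was at 0.

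Markers of extraembryonic endoderm were higher in promoter KO, with a median of 1.54. By limma 10 of 16 tested genes were called higher and 0 lower, where 1.68% and 1.89% of all tested genes were. At an unadjusted p under 0.05 there were 13 higher and 1 lower. The summed level of these markers was 103 and 124 FPKM in WT EBs, compared with 240 and 303 FPKM in promoter KO EBs, with *Lamb1* the most abundant. The defining markers *Sox7* (0.289 and 0.221 FPKM in WT EBs, then 1.87 and 1.66 FPKM in promoter KO EBs) and *Dab2* (4.97 and 2.48 FPKM, then 13.0 and 18.4 FPKM) were called, with adjusted p-values of 0.0371 and 0.0408. *Sox7* and *Cubn*, 2 of the 10 called genes, passed the filter through promoter KO alone and could be called only as higher there. So did *Plat*, which is among the 13 but was not called. *Gata4*, at 5.02 and 19.4 FPKM in WT EBs, compared with 9.68 and 13.8 FPKM in promoter KO EBs, overlapped between the genotypes. Extraembryonic endoderm is known to express *Sparc*, the called gene of the mesenchymal list.

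Of the naive stem cell markers, 9 of 10 were tested and 0 were called by limma, although 6 were higher at an unadjusted p under 0.05 and the median was 1.01. Their sum was 56.8 and 116 FPKM in WT EBs, compared with 243 and 134 FPKM in promoter KO EBs, with *Klf2* the most abundant. *Zfp42* stood at 12.9 and 21.6 FPKM in WT EBs, compared with 46.6 and 25.7 FPKM in promoter KO EBs, and *Esrrb* at 7.10 and 11.3 FPKM against 41.9 and 18.0 FPKM. *Cdh1* and *Epcam* are expressed in such cells as well. In the neuroectoderm list 2 of 10 genes were tested. *Tubb3* was called higher by limma, and so was *Neurod1*, which passed the filter through promoter KO alone and could be called only as higher there. The list had summed levels of 16.4, 13.8, 30.2 and 32.5 FPKM in the order WT 1, WT 2, promoter KO 1 and promoter KO 2. Most of this was *Tubb3*, while the defining markers *Sox1* and *Pax6* stayed between 0.0523 and 0.565 FPKM in all 4 samples.

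The remaining lists showed few calls. Fibroblast or feeder cell markers summed to 39.3, 44.3, 37.2 and 33.1 FPKM in that order of samples, most of it *Fbln1*, with 4 of 10 tested and 0 called by limma (3 lower, of which *Col1a1* and *Pdgfrb* passed the filter through WT alone, and 0 higher at an unadjusted p under 0.05). Of these 10 genes, 7 are also in the mesenchymal list. The defining marker *Dcn*, below the filter, stood at 0.0255 and 0.0271 FPKM in WT EBs, compared with 0.0825 and 0.327 FPKM in promoter KO EBs, and *Col1a1* stood at 1.04 and 1.25 FPKM in WT EBs, compared with 0.649 and 0.404 FPKM in promoter KO EBs. Endothelial and blood markers summed to 12.4, 27.1, 14.2 and 11.3 FPKM. *Lmo2* was the most abundant by the mean over all samples, but *Kdr* was higher in WT 2 and *Pecam1* in both promoter KO samples. Of 5 tested genes limma called 1, *Lmo2*, lower in promoter KO and 0 higher. At an unadjusted p under 0.05 there were 2 lower and 2 higher, and the list median was 0.23. Of these, *Kdr*, which was lower, passed the filter through WT alone and *Tek*, which was higher, through promoter KO alone, so the filter fixed their directions. The defining *Cdh5* and *Tal1* were below 1 FPKM in all 4 samples. Trophoblast markers summed to 186, 218, 67.9 and 111 FPKM, but most of this was *Eomes*, a streak marker too, whereas the defining *Elf5* and *Plac1* did not exceed 0.0473 and 0.164 FPKM. Of 5 tested genes limma called 1, *Tfap2c*, lower and 0 higher. At an unadjusted p under 0.05, 3 were lower, among them *Eomes*, and 0 higher, and the list median was -1.16. *Elf5* was listed at 0 in WT 1 and promoter KO 1. The part of these cell types in the lower *Cdh2* and *Cdh11* levels was not tested.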

How the data were processed

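Total RNA of day 3 EBs was sequenced in 4 samples, and the labels of the samples gave genotype, day and replicate number. The values the authors deposited are FPKM per gene, in 1 table per sample with no unit named; the methods call the unit RPKM. The methods name TopHat and Cufflinks with the GENCODE annotation on GRCm38/mm10, whereas the submitters' processing notes name HISAT2 2.1.0, Cufflinks and Cuffnorm on mm10, so the aligner behind the tables is uncertain. The strand setting is not given in the sources used here.

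Differences were tested with limma (version 3.58.1, R version 4.3.3; lmFit, then eBayes with its trend option, at 3.99 prior degrees of freedom) on log2(FPKM + 1), two-sided, without further scaling, with Benjamini-Hochberg adjustment over the 11941 genes that had 1 FPKM or more in 2 or more samples. The pseudocount of 1 makes differences of low genes smaller than the ratio of their FPKM. Simulated data were used to test the code. No count test was run, because whole reads could not be recovered from the FPKM values. The depth was estimated from the value that 1 fragment gives in genes with a single transcript of GENCODE M21 (GRCm38), at an assumed fragment length of 200 bases. Fragments behind a value were estimated from the longest transcript of the gene, and they cover counting only. Near-identical copies were found with BLAST 2.17.0. Python 3.11.15 served for tables (pandas 2.3.3, numpy 2.4.6) and figures (matplotlib 3.10.9).

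The members, the gene lists and the marker lists were chosen with earlier results of these data known. Named genes are the members, the targeted gene, in each list the called genes and up to 3 further tested genes with the largest difference in size, the defining markers, and the 5 genes nearest to each called member; *Snai2* beside *Snai1*, *Ctnnb1*, *Zeb2os*, the *Cdh11* copies, other called markers, genes that passed the filter through 1 genotype alone, *Kdr*, *Pecam1* and the most abundant gene of a list were added after their values were seen. In 1 list, 5 genes were matched by an older symbol. The alternatives were a replicate block, a pseudocount of 0.1, no filter, a filter at a mean of 5 FPKM, no trend, median centring, quantile normalization, each sample left out in turn, the log2 ratio of mean FPKM, and the study's thresholds, a fold above 2 or below 0.5 and a p under 0.05, applied here to the unadjusted p of limma; the study used Cuffdiff and does not say whether its p was adjusted.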

Additional observations from a re-analysis of the deposited data

How the results depend on the processing

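All 8 tested members kept the direction of their difference under every alternative run for them. *Zeb2* was below the filter at a mean of 5 FPKM and has no value there. The log2 difference ran from -1.87 to -1.34 for *Cdh2* and from -2.37 to -1.73 for *Cdh11*, with adjusted p-values by limma of 0.00675 to 0.186 and of 0.00750 to 0.141. With a pseudocount of 0.1, a filter at a mean of 5 FPKM, median centring, quantile normalization or the study's thresholds on the unadjusted p of limma, both stayed called.

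With no filter, limma called 0 of 18215 genes lower and 0 higher (4059 had an unadjusted p under 0.05), so 0 members were called, with *Cdh2* at -1.61 and *Cdh11* at -1.997 as before. Without the trend 27 genes were lower and 55 higher, and 1 member, *Cdh11*, was called, since the adjusted p of *Cdh2* (-1.61) was 0.0629. A filter at a mean of 5 FPKM left 108 lower and 95 higher, out of fewer genes tested, and median centring left 126 lower and 157 higher, against 226 lower and 201 higher as reported. The ratio of mean FPKM gave -2.37 for *Cdh11* and -0.88 for *Zeb2*, since it has no pseudocount. Apart from these constructions the cause was not tested.

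With each sample left out in turn, a genotype is left with 1 sample, which is assumed to vary like the others. The calls then ran from 0 to 248 genes lower and from 0 to 238 higher, and from 0 to 3 members lower. The *Cdh2* difference ran from -1.87 to -1.34, that of *Cdh11* from -2.26 to -1.73 and that of *Vim* from -1.10 to -0.095, and the difference in the log2 *Cdh2* to *Cdh1* ratio from -2.26 to -1.54.

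Samples with the same replicate number share only a number, and their deviations from the genotype means correlated at 0.0348. With the number as a block, limma called 667 genes lower and 535 higher, among them the 427 called without it, and the same 2 members. In several lists the calls then rose in number. Lower calls rose from 0 to 4 other epithelial genes, 0 to 4 other mesenchymal genes and 2 to 5 other transcription regulators. Higher calls in these lists rose from 0 to 2, from 1 to 2 and from 0 to 2, in the same order. The catenins and junction partners stayed at 0 lower and 1 higher.

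For the called genes of the gene lists and up to 3 further genes of each with the largest difference, the alternative values were counted. Of these values, 253 kept their side of the threshold, 34 no longer passed it, 23 newly passed it, and none changed direction. Most of the 253 belonged to genes that were not called as reported and had no call to lose. All 34 losses fell on the called genes *Sparc*, *Gsc*, *Hmga2*, *Plekha7* and *Pcdh7*. Each of these lost its call with no filter (limma, adjusted p of 0.1425 to 0.1463) and without the trend (0.0617 to 0.0677). Alternatives were not tabulated for other genes named from these lists or from the cell type marker lists. Depth limits *Snai2*, which rests on about 1.00 to 10.1 fragments per sample, and *Gm11549* in promoter KO EBs, at about 0 and 3.46 fragments. In addition, 2 samples per genotype limit every test here.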

Other observations

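Of 16 genes of integrins, which bind cells to the matrix, 9 were tested, and limma called 0 in either direction, with 4 lower and 1 higher at an unadjusted p under 0.05 and a median log2 difference of -0.35. Of the 4, *Itga8* passed the filter through WT alone, so the filter fixed its direction. *Itga5*, a fibronectin receptor subunit, stood at 15.3 and 20.1 FPKM in WT EBs, compared with 10.8 and 10.9 FPKM in promoter KO EBs (limma, adjusted p = 0.0640). *Itgb5* stood at 29.9 and 33.3 FPKM against 17.9 and 22.6 FPKM, and *Itga8* at 1.74 and 2.203 FPKM against 0.375 and 0.728 FPKM. In all 3 genes both promoter KO samples were below both WT samples, and none passed the test. *Itgb1*, the most abundant integrin, stood at 56.3 and 64.8 FPKM in WT EBs, compared with 35.8 and 49.5 FPKM in promoter KO EBs.

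Intermediate filament genes besides *Vim* had a median log2 difference of -0.05 over 12 tested genes of 13, and limma called 0, with 4 lower and 3 higher at an unadjusted p under 0.05. *Nes*, which encodes nestin, stood at 21.6 and 24.5 FPKM in WT EBs, compared with 6.94 and 14.7 FPKM in promoter KO EBs (limma, adjusted p = 0.0831). The keratin genes *Krt8* (68.5 and 132 FPKM in WT EBs, 46.5 and 65.7 FPKM in KO EBs) and *Krt7* (3.65 and 4.53 FPKM, then 2.12 and 2.22 FPKM) were also lower in both promoter KO samples without passing the test. For *Krt8*, as for *Vim* and *Fn1*, WT 2 was the highest sample. *Itgb1* was named after its values were seen.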
